A study of Arabidopsis thaliana with 12 samples.

Results

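Leaf transcripts of the Arabidopsis line ape2 were compared with those of its wild type, the accession Ws-2, in the condition that the sample titles call H. The comparison takes 6 of the 12 arrays of the study, chosen by genotype and condition as labelled: 3 arrays of ape2 in H and 3 of Ws-2 in H. The other 6 arrays hold the same genotypes in a condition called L. What L and H stand for is not given in the sources used here, and both are used as names only. Ws-2 came from the stock N1601, and ape2 is recorded as a T-DNA insertion in the Ws-2 background. All 4 groups are rosette leaves that were mature and not shaded, at developmental stage 3.7. A single insertion line stands for the mutant genotype, and no age in days, growth regime or number of plants per array is given in the sources used here.

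By its title the series concerns a TPT mutant. TPT, the triose phosphate translocator, sits in the inner envelope of the chloroplast and passes the triose phosphates made by photosynthesis to the cytosol in exchange for phosphate, where they feed sucrose synthesis. Carbon that does not leave by day can be stored as starch in the chloroplast and leave at night as maltose and glucose through other transporters. Low carbon in leaf cells is known to act through the kinase SnRK1, which promotes the breakdown of cell constituents, including autophagy, and represses growth. The comparison asks how the set of leaf transcripts differs in such a mutant.

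The values are array signals, scaled so that the trimmed mean of each array is 100, and changes are differences between group means of log2(signal + 10), ape2 minus Ws-2. A probe set was called when its adjusted p was under 0.05 in limma with Benjamini-Hochberg adjustment over all 16076 probe sets tested, and "rose" and "fell" are used of called probe sets only. Each group has 3 arrays, and signals by array are given in the order 1, 2 and 3, with Ws-2 before ape2. Errors of signals are SDs (n = 3) and errors of log2 changes are SEs. Precision is limited by the number of arrays, with a median SE of a change of 0.13 (quartiles 0.10 and 0.17). The median signal of the 6 arrays lay between 36.2 and 38.3, and 64.2% to 66.5% of probe sets reached a signal of 20. Correlations of log2 signals between arrays ran from 0.978 to 0.985 within a genotype and from 0.959 to 0.976 between genotypes. The leading principal component of the 6 arrays held 45.9% of the variance and separated the genotypes, with Ws-2 at -22.8 to -13 and ape2 at 14.7 to 24.5. Signs of RNA integrity overlapped between the genotypes, with a ratio of the 3' to the 5' actin probe set of 3.3 to 4.61 in Ws-2 and 3.2 to 4.06 in ape2.

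Transcripts typical of mature leaf were bright, and the measured markers of other tissues and cells had far lower signals. RCA, which encodes Rubisco activase, had signals of 4654, 3789.5 and 3884 on the Ws-2 arrays and 4116, 3715 and 4147 on the ape2 arrays. The 5 measured nuclear photosystem subunits summed to 15827 to 18334 in Ws-2 and 15440 to 17458 in ape2. By contrast, both measured root hair expansins, EXPA7 and EXPA18, summed to 45.6 to 48.8 and 40.4 to 51.5, and both measured mitotic kinases, AUR1 and AUR2, to 68.2 to 81.2 and 73.9 to 80.6. FMA, a guard cell factor, was at 43.7, 48.2 and 38.9 in Ws-2 and 57.9, 46.0 and 57.9 in ape2, a log2 change of 0.25 ± 0.14 (adjusted p = 0.314). None of these markers of other cells was called. They are few: 1 of 8 listed markers of guard cells, 2 of 8 of root and 2 of 10 of dividing cells. No listed marker of phloem companion cells, trichomes and epidermis, or xylem was measured. These signals therefore do not describe the cell make-up of the samples. In whole leaves, fewer cells of a type and less RNA per cell cannot be told apart.

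In condition H, 1690 of 16076 probe sets were called, which is 10.5%. Of these 800 were higher in ape2 (4.98%) and 890 lower (5.54%). The counts of called list and family members given below are to be read beside these shares. A gene counts as measured where the annotation used here names it for a tested probe set. No gene is named for 6763 of the tested probe sets, which hold 838 of the 1690 calls. The lists and families do not cover these, so their counts describe the named genes only. Most changes were small: the median size was 0.55 on the log2 scale for rises and 0.47 for falls, and 112 rises and 44 falls reached 2-fold. At 4-fold or more there were 10 rises and 3 falls. Brighter probe sets were called more often, from 2.89% of those with a mean signal up to 33 to 19.3% of those with a mean signal of at least 159, where the median SE was 0.09 against 0.19. Calls were spread over the nuclear chromosomes at similar shares, from 8.21% of the probe sets matched to chromosome 4 to 9.95% of those matched to chromosome 3. The signals of the genotypes did not overlap in 1681 of the 1690 calls, and in 28.4% of all probe sets. Without Ws-2 H 3 the count of calls was 1095, with 533 higher and 562 lower, and 861 probe sets (5.36%) were called without each of the 12 arrays in turn. The plot of change against signal shows that rises reached farther than falls, apart from a few strong falls.

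**Figure D1:**
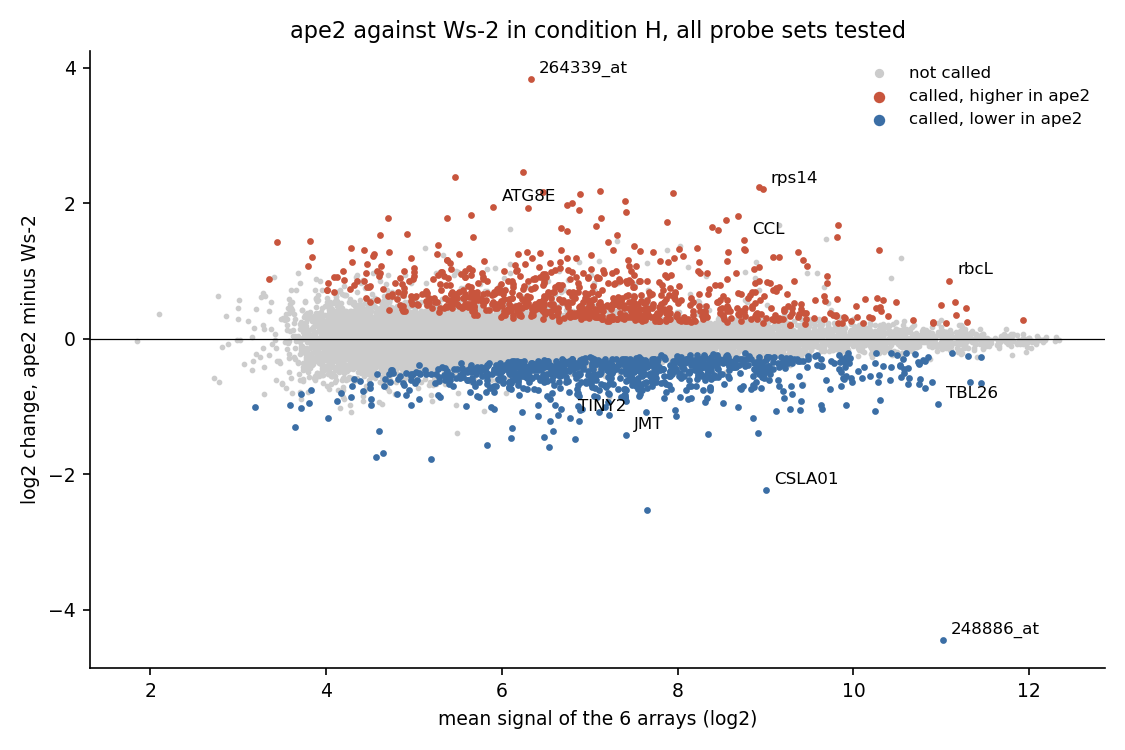
Log2 change (ape2 minus Ws-2) of each of 16076 probe sets against the log2 of its mean signal over the 6 arrays of condition H. Red points are the 800 called higher in ape2, blue points the 890 called lower, and grey points those not called; 248886_at lies lowest at -4.44 and 264339_at highest at 3.84.

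The annotation used here pairs no probe set with TPT, so the mutated gene could not be used to check the genotype labels. Of 12 plastid envelope translocators listed, 1 has a tested probe set named for it, AT5G17630. Its signals were 317, 362 and 329.9 in Ws-2 and 305, 291 and 279 in ape2. The arrays did not overlap, but the change of -0.20 ± 0.08 was not called (adjusted p = 0.134). The largest changes of all in each direction belonged to 2 probe sets with no gene named. The probe set 248886_at read 4466, 3739.5 and 3689 on the Ws-2 arrays and 181, 168 and 168 on the ape2 arrays, a log2 change of -4.44 ± 0.09 (adjusted p = 1.88e-14). The largest rise was that of 264339_at, which read 2, 1 and 2 in Ws-2 and 127, 171 and 179 in ape2 (3.84 ± 0.14, adjusted p = 1.56e-10). Ws-2 had hardly any signal there, and the size of the change moves with the offset, to 5.91 at an offset of 1 and 2.49 at 32. The arrays of the genotypes lay far apart for both probe sets.

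Several genes known to respond to low carbon rose in ape2. AKINBETA1, a beta subunit of SnRK1 whose transcript is known to fall when sugar is added, had signals of 35.8, 33.8 and 31.2 on the Ws-2 arrays and 65.8, 82.5 and 78.0 on the ape2 arrays. The groups did not overlap, and the log2 change was 0.97 ± 0.11 (adjusted p = 3.99e-05). Of 25 genes listed as repressed by sugar or induced by starvation, 7 were measured, of which 4 rose and 0 fell. The median change of the 7 was 0.42, against -0.01 over all probe sets tested. Beside AKINBETA1, AT3G26510 read 264, 186 and 204 in Ws-2 and 518, 516 and 594 in ape2, with every ape2 array above the Ws-2 arrays (1.29 ± 0.11, adjusted p = 2.1e-06). AT1G18460 rose less, from 171 ± 9.11 to 233 ± 7.2 (0.42 ± 0.10, adjusted p = 0.0111). AT5G19120 was near background in Ws-2 at 3.2, 2.7 and 2.6 and reached 17.8, 28.6 and 29.4 in ape2 (1.44 ± 0.20, adjusted p = 0.000148), with 2.75 at an offset of 1 and 0.71 at 32. All 4 calls held without each array. The other measured members of the list were not called. AT3G15450 was at 0.31 ± 0.12, AT2G32150 at 0.02 ± 0.20 and AT2G05540 at -0.08 ± 0.29 (adjusted p = 0.121, 0.965 and 0.909). AILP1, an aluminium-induced protein-like gene that is not on the list, rose from 409, 252 and 283 to 573, 805 and 599 (1.06 ± 0.20, adjusted p = 0.00529).

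Autophagy delivers cytoplasm to the vacuole in vesicles whose membrane carries the ubiquitin-like ATG8 proteins. Of 11 measured autophagy genes 4 rose and 0 fell, and the median change was 0.28. Most of the measured genes of this list belong to the ATG8 family. Those outside it, AT3G61960 and AT3G53930, were at 0.09 ± 0.11 and 0.29 ± 0.16 and were not called (adjusted p = 0.712 and 0.311). With so few genes outside the family, the list cannot show whether the rise is particular to ATG8. The risers are all ATG8 genes. ATG8E was the strongest, with signals of 17.3, 18.8 and 19.3 in Ws-2 and 84.2, 108 and 111 in ape2 (1.95 ± 0.12, adjusted p = 4.73e-08); its Ws-2 signal is dim, and the change was 2.38 at an offset of 1 and 1.39 at 32. ATG8F was far brighter in both genotypes, at 546, 403 and 452 and 720.4, 742 and 767, and rose by less (0.67 ± 0.09, adjusted p = 0.000193). These 2 calls held without each array. The calls of the remaining ATG8 risers did not: that of APG8H at 0.37 (adjusted p = 0.0348) was lost without Ws-2 H array 2 or 3 or ape2 H array 2 (adjusted p up to 0.155), and that of ATG8H at 0.50 (adjusted p = 0.0479) without any 1 Ws-2 H array, Ws-2 L array 2, ape2 H array 1 or 2 or ape2 L array 1 or 3 (adjusted p up to 0.169). The other ATG8 genes measured, APG8A, ATG8B, ATG8C, ATG8D and ATG8G, had changes of 0.21, 0.00, 0.25, 0.28 and 0.19 and were not called. The breakdown of branched-chain amino acids, another source of respiratory fuel when carbon is low, had 0 called of 9 measured genes, with all 9 changes above 0 and a median of 0.09. In that group MCCB, a subunit of methylcrotonyl-CoA carboxylase, was at 0.26 ± 0.11 (adjusted p = 0.178), and IVD, isovaleryl-CoA dehydrogenase, at 0.08 ± 0.14 (adjusted p = 0.805).

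A few genes for the handling of sucrose and starch passed the test, with changes of modest size. Of 4 measured genes of cytosolic sucrose synthesis 1 rose and 2 fell, with a median of -0.25. F2KP, the enzyme that makes and breaks the signal metabolite fructose 2,6-bisphosphate, fell from 783, 834 and 752 to 646, 616 and 663 (-0.29 ± 0.07, adjusted p = 0.0104), a call lost without Ws-2 H array 2 (adjusted p = 0.0563). AT2G35840 fell by a similar amount (-0.30 ± 0.07, adjusted p = 0.0143), lost without Ws-2 H array 1 or 2 or ape2 H array 2 (adjusted p up to 0.0571). ATSPS4F, a sucrose-phosphate synthase, went the other way, from 854, 863 and 812 to 1098, 905 and 1181 (0.32 ± 0.08, adjusted p = 0.0227), a call not kept without Ws-2 H array 3 or ape2 H array 1 or 3 (adjusted p up to 0.114). In starch synthesis, all 3 measured genes had changes below 0 and 1 fell. It was APL3, which encodes a sugar-induced large subunit of the ADP-glucose pyrophosphorylase, with 129, 107 and 111 in Ws-2 and 74.2, 81.6 and 73.0 in ape2 (-0.54 ± 0.11, adjusted p = 0.0032). SBE2.2, a starch branching enzyme, was at -0.23 ± 0.08 (adjusted p = 0.0698). Starch breakdown was represented by DPE1, the plastid disproportionating enzyme, at -0.03 ± 0.12 (adjusted p = 0.928), and the phosphoglucan dikinase PWD of locus AT5G26570 at 0.23 ± 0.08 (adjusted p = 0.11).

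Sugar transporters and invertases had 1 fall and 0 rises among 7 measured, with a median of -0.17. The fall was that of SAG29, also known as SWEET15, a sugar exporter induced in senescence, from 89.3, 81.8 and 115 to 28.5, 55.6 and 70.3 (-0.83 ± 0.23, adjusted p = 0.0337), and it was lost without Ws-2 H array 1 or 3 or ape2 H array 1 or 2 (adjusted p up to 0.148). The vacuolar fructose transporter SWEET17 read 463, 505 and 359 in Ws-2 and 301, 296 and 330.2 in ape2, which did not overlap, but its change of -0.49 ± 0.15 was not called (adjusted p = 0.0561). SWEET11, which exports sucrose for phloem loading, was at -0.06 ± 0.06 (adjusted p = 0.667), and the vacuolar sugar importers TMT1 and TMT2 were at -0.17 ± 0.08 and -0.20 ± 0.13 (adjusted p = 0.255 and 0.416). SWEET2, a vacuolar SWEET transporter counted with the transporter family, fell from 280.3 ± 14.7 to 218 ± 12.6 (-0.35 ± 0.08, adjusted p = 0.012), a call lost without Ws-2 H array 2 or ape2 H array 2 (adjusted p up to 0.0573). Of 11 measured genes of glycolysis and the tricarboxylic acid cycle 1 fell, cICDH, the cytosolic NADP-dependent isocitrate dehydrogenase, from 1761, 1678 and 1624 to 1244, 1249 and 1346 (-0.40 ± 0.07, adjusted p = 0.00076). The others stayed between -0.32 and 0.19, among them TPI, triose phosphate isomerase, at 0.14 ± 0.07 (adjusted p = 0.268), and GAPC2, the cytosolic glyceraldehyde 3-phosphate dehydrogenase, at 0.06 ± 0.08 (adjusted p = 0.726).

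**Figure D2:**
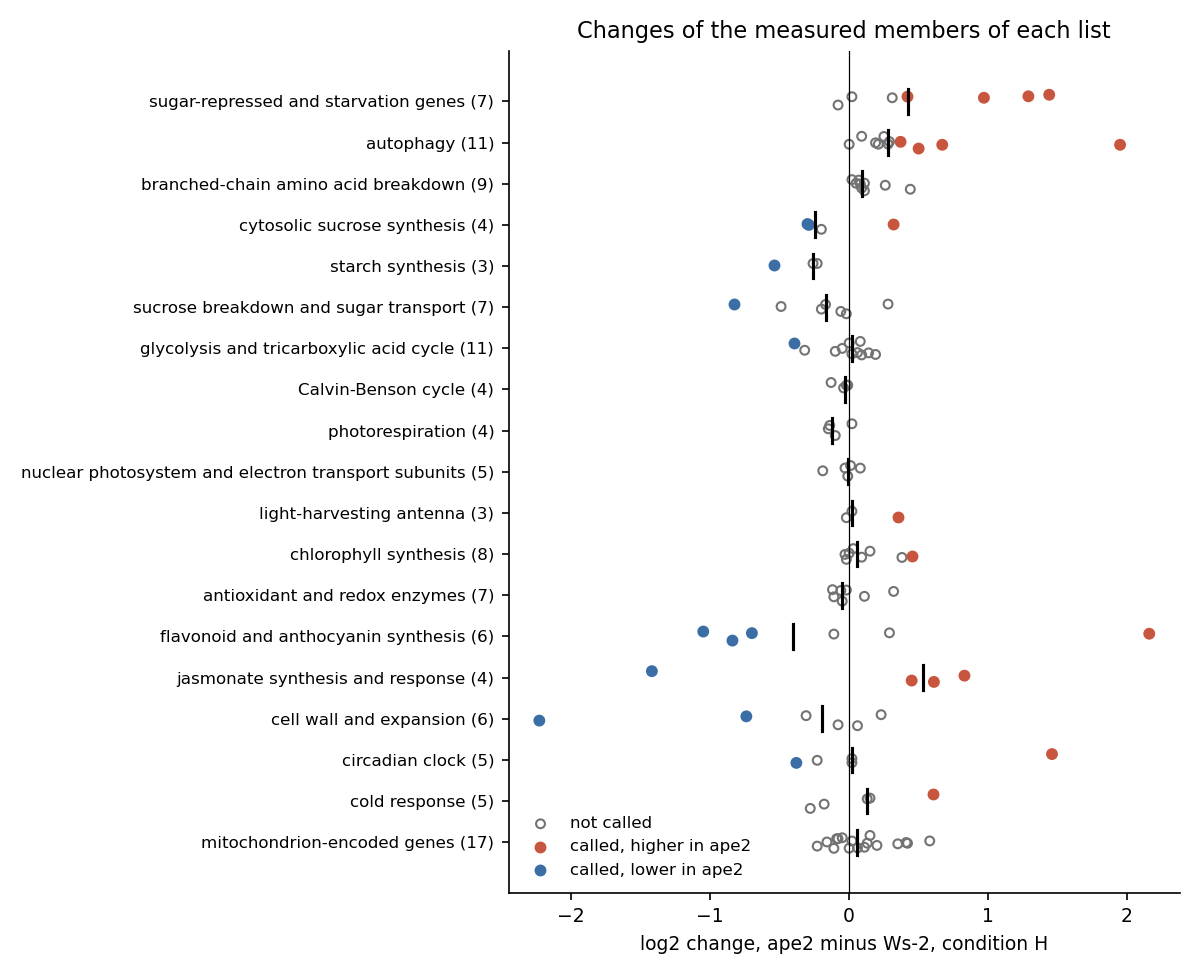
Log2 change (ape2 minus Ws-2, condition H) of each measured member of 19 gene lists, with the number measured in brackets. Filled points are called higher (red) or lower (blue), open points are not called and the black bar is the list's median, which is highest for jasmonate genes at 0.53 and lowest for flavonoid genes at -0.41.

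Among lipid genes the oil lipase rose and several synthesis genes fell. SDP1, a lipase known to start the breakdown of stored oil in seedlings, had signals of 26.9, 23.8 and 27.9 in Ws-2 and 58.7, 55.4 and 58.3 in ape2, each ape2 array at about the same level (0.90 ± 0.11, adjusted p = 5.57e-05). Lipid genes were grouped by symbol after their values were seen, and of the 8 measured 1 rose and 4 fell. FATB, a thioesterase that releases saturated fatty acids in the chloroplast, fell from 521, 467 and 498 to 388, 371 and 361 (-0.40 ± 0.07, adjusted p = 0.00143). AAPT2, an aminoalcohol phosphotransferase of phospholipid synthesis, fell from 288, 296 and 272 to 193, 202 and 179 (-0.55 ± 0.11, adjusted p = 0.00247). ACLB-1, a subunit of ATP citrate lyase, which makes cytosolic acetyl-CoA, was at -0.29 (adjusted p = 0.0315) and was no longer called without any 1 Ws-2 H array or ape2 H array 2 or 3 (adjusted p up to 0.126). The calls of SDP1, FATB and AAPT2 held without each array.

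The 5 lists of nuclear genes of photosynthesis given here held 2 calls, LHCB4.2 and PORB, while 10.5% of all probe sets were called. With 3 to 8 genes measured on each list, these counts are given as a description. In the Calvin-Benson cycle 0 of 4 measured genes were called, with PRK, phosphoribulokinase, at -0.02 ± 0.09 and SBPASE, sedoheptulose bisphosphatase, at -0.01 ± 0.08 (adjusted p = 0.934 and 0.953). In photorespiration 0 of 4 were called, and the median was -0.12. Changes of the 5 nuclear subunits of the photosystems and electron transport, none of which was called, lay between -0.19 and 0.08, and those of the 7 antioxidant and redox enzymes, also with 0 called, between -0.12 and 0.32. LHCB4.2, a minor antenna protein of photosystem II, was the 1 call among 3 antenna genes, with 2203, 1972 and 1903 in Ws-2 and 2502, 2457 and 2769 in ape2 (0.35 ± 0.08, adjusted p = 0.0138). Its call was lost without Ws-2 H array 2 or 3 or ape2 H array 3 (adjusted p up to 0.0758), and the related LHCB4.1 and LHCB4.3 were at 0.02 ± 0.09 and -0.02 ± 0.06 (adjusted p = 0.919 and 0.896). Chlorophyll synthesis had 1 rise among 8, PORB, a light-dependent protochlorophyllide reductase, from 382, 399.6 and 375 to 561, 502 and 532 (0.45 ± 0.07, adjusted p = 0.000491). CHLI2, a subunit of magnesium chelatase, was at 0.38 ± 0.12 and was not called (adjusted p = 0.051). LIL3:2, a light-harvesting-like protein that holds geranylgeranyl reductase in the membrane, fell from 2002 ± 89.3 to 1675 ± 58.5 (-0.26 ± 0.06, adjusted p = 0.0163), a call lost without Ws-2 H array 2 or ape2 H array 2 (adjusted p up to 0.0799).

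Chloroplast-encoded transcripts had a median change of 0.02 over the 69 measured, and their summed signal ran from 115713 to 130832 in Ws-2 and from 115835 to 131844 in ape2. Within them 7 rose, which is 10.1% beside 4.98% of all probe sets, and 0 fell. Bright probe sets were called more often: of the 4019 with a mean signal of at least 159, 329 rose and 447 fell. The chloroplast share was not compared at matched brightness. The large subunit of Rubisco, rbcL, read 1713, 1396 and 1531 in Ws-2 and 2689, 2531 and 3231 in ape2 (0.86 ± 0.11, adjusted p = 6.41e-05). The cytochrome b6f subunit petD read 188, 281 and 246 and 614, 444 and 813 (1.33 ± 0.20, adjusted p = 0.00083). The ribosomal protein gene rps14 read 85.2, 289 and 168 and 784, 558 and 1116, with the largest SE of the 3 log2 changes (2.21 ± 0.39, adjusted p = 0.00747), and its call was lost when condition H alone was fitted. In each of these genes the arrays of the genotypes did not overlap, and on ape2 all 3 genes were lowest on array 2 and highest on array 3. The photosystem II subunit psbE rose from 1165 ± 43.8 to 1700.5 ± 187 (0.54 ± 0.11, adjusted p = 0.00632).

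The remaining chloroplast-encoded calls depended on single arrays. The photosystem II subunit psbJ was at 0.34 (adjusted p = 0.012), lost without Ws-2 H array 3 or ape2 H array 1 or 3 (adjusted p up to 0.068). For psbA, the D1 protein of photosystem II and the brightest called gene, the signals were 3807, 3298 and 3465 and 4180.3, 4032 and 4643 (0.28 ± 0.08, adjusted p = 0.0453), lost without Ws-2 H array 2 or 3, Ws-2 L array 2, ape2 H array 1 or 3 or ape2 L array 1 or 3 (adjusted p up to 0.18). A subunit of the plastid RNA polymerase, rpoB, was at 0.63 (adjusted p = 0.0377), lost without Ws-2 H array 1 or 3, Ws-2 L array 1, ape2 H array 1 or 3 or ape2 L array 3 (adjusted p up to 0.126). Some genes that share a complex with a riser, chosen after their values were seen, were not called: petA and petB were at -0.17 ± 0.09 and -0.04 ± 0.08 beside petD, psbF and psbL at 0.28 ± 0.10 and 0.11 ± 0.08 beside psbE and psbJ, and psbD at 0.09 ± 0.10 beside psbA (adjusted p = 0.262, 0.849, 0.0866, 0.511 and 0.669). Of 17 probe sets for mitochondrial genes 0 were called, with a median of 0.06.

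**Figure D3:**
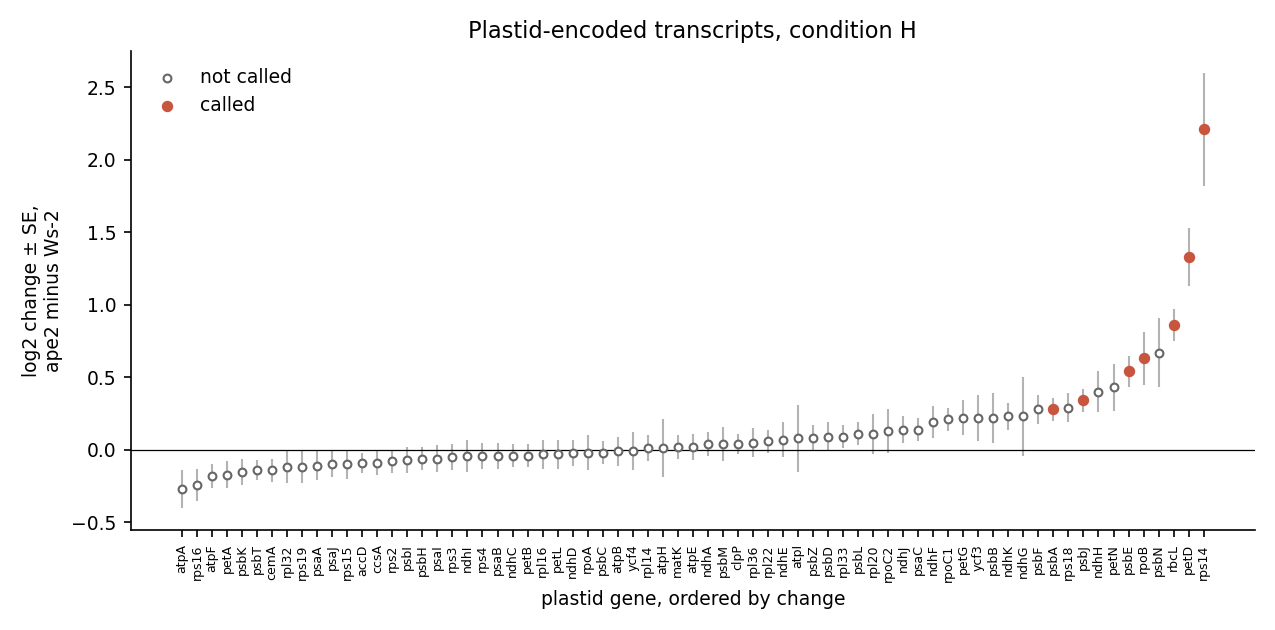
Log2 change with its SE (ape2 minus Ws-2, condition H) of the 69 measured chloroplast-encoded transcripts, in order of the change. The 7 called genes are filled; rps14 (2.21), petD (1.33) and rbcL (0.86) stand above the others, most of which lie near 0.

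Several transcripts of secondary metabolism fell in ape2, and a few rose. Of 6 measured flavonoid genes 3 fell and 1 rose, with a median of -0.41, and all 4 calls held without each array. UGT78D1, a flavonol rhamnosyltransferase, read 154, 182 and 182 in Ws-2 and 109, 81.2 and 87.4 in ape2 (-0.84 ± 0.15, adjusted p = 0.00135). UGT78D2, a flavonoid glucosyltransferase, read 344, 385 and 374 and 238, 227 and 201 (-0.70 ± 0.09, adjusted p = 9.31e-05). AT1G06000 went from 163 ± 23.3 to 73.6 ± 9.63 (-1.05 ± 0.14, adjusted p = 0.000125). The riser on the flavonoid list was AT1G23390, an F-box gene and not a glycosyltransferase. It read 112, 68.6 and 73.8 in Ws-2 and 359, 473 and 392 in ape2 (2.16 ± 0.15, adjusted p = 4.11e-07). DFR, the dihydroflavonol reductase of anthocyanin synthesis, was at 0.29 ± 0.15 and was not called (adjusted p = 0.277).

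Some glycosyltransferases of other pathways also fell. Among 23 UDP-glycosyltransferases found by keyword 4 fell and 1 rose, with a median of -0.07; by their UGT symbols, grouped after the values were seen, the counts were 6 and 1 of 27. UGT74B1, which adds glucose in glucosinolate synthesis, went from 414, 406 and 413 to 314, 213 and 228 (-0.71 ± 0.12, adjusted p = 0.000979). UGT84A3, which makes glucose esters of hydroxycinnamates, went from 277, 210.5 and 297 to 157, 150.5 and 159.6 (-0.70 ± 0.11, adjusted p = 0.000508), with the ape2 arrays much closer together than the Ws-2 arrays. UGT88A1 was the family's single rise, from 352, 343 and 330.4 to 646, 580.1 and 658 (0.86 ± 0.08, adjusted p = 3.68e-06). The other measured glucosinolate genes were AT2G25450, which rose from 408 ± 69.8 to 681 ± 56.3 (0.73 ± 0.11, adjusted p = 0.00039), and BCAT4, the first aminotransferase of methionine chain elongation, at 0.49 ± 0.16 and not called (adjusted p = 0.0731). Sulfur assimilation, which feeds glucosinolates, had SIR, the sulfite reductase, lower at 900.2, 1002 and 964 in Ws-2 and 772, 764 and 744 in ape2 (-0.32 ± 0.07, adjusted p = 0.00549). SIR was the 1 call among 3 measured genes of the sulfur list. The others, APS4 and AT1G04770, were at -0.10 ± 0.12 and 0.55 ± 0.21 (adjusted p = 0.694 and 0.138). APS3, an ATP sulfurylase outside that list and noticed after its values were seen, fell from 128 ± 3.78 to 89.2 ± 7.71 (-0.48 ± 0.10, adjusted p = 0.00405). Of 15 cytochrome P450 genes 1 rose and 1 fell, beside 4.98% higher and 5.54% lower among all probe sets. CYP71B36 rose from 32.3, 29.2 and 28.6 to 60.8, 81.8 and 54.7 (0.91 ± 0.15, adjusted p = 0.000694). CYP71B26 fell from 162 ± 7.54 to 117 ± 3 (-0.44 ± 0.08, adjusted p = 0.00265).

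Jasmonate genes moved both ways. JMT, which converts jasmonic acid to its methyl ester, fell from 229, 269 and 256 in Ws-2 to 103, 75.4 and 86.7 in ape2 (-1.42 ± 0.11, adjusted p = 4.81e-07). MYC4, a bHLH activator of jasmonate responses and of glucosinolate genes, fell from 251, 225 and 236 to 135, 135 and 143 (-0.74 ± 0.10, adjusted p = 0.000186), and its relative MYC3, noticed after its values were seen, from 74.4, 87.6 and 94.7 to 52.2, 56.3 and 49.7 (-0.60 ± 0.14, adjusted p = 0.00908), a call lost without Ws-2 H array 3 (adjusted p = 0.0522). The defensin genes, known to respond to jasmonate and ethylene together, were higher. PDF1.2b read 420.2, 353 and 351 and 589.5, 599 and 865 (0.83 ± 0.14, adjusted p = 0.00135), and PDF1.2 read 268, 188 and 213 and 313, 328 and 389.8 (0.61 ± 0.14, adjusted p = 0.0103). PDF1.2 and PDF1.2b are near-identical copies whose transcripts can hybridise to each other's probes, and the call of PDF1.2 was lost without Ws-2 H array 2 or ape2 H array 3 (adjusted p up to 0.0545). In all, 3 of the 4 measured jasmonate genes rose and 1 fell, with a median of 0.53; the remaining riser, AT1G52000 at 0.45 (adjusted p = 0.0398), lost its call without Ws-2 H array 2 or 3, Ws-2 L array 2 or 3 or ape2 H array 1 or 2 (adjusted p up to 0.158).

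Cell wall genes held the largest fall of the genes with a symbol. CSLA01, a glycosyltransferase of the family that makes mannans, read 825, 804 and 920.3 on the Ws-2 arrays and 224, 157 and 146 on the ape2 arrays, a log2 change of -2.23 ± 0.19 (adjusted p = 8.19e-06). TBL26, of a family that acetylates wall polysaccharides, was among the brightest genes that fell, from 2701, 2612 and 2585 to 1373, 1247 and 1424 (-0.96 ± 0.07, adjusted p = 3.97e-07). GH9C2, an endoglucanase, fell from 482, 561 and 546 to 325, 281 and 334 (-0.74 ± 0.09, adjusted p = 3.49e-05). The replicates of these genes lay close together relative to the gap between genotypes. XTH32, a xyloglucan transglucosylase, fell from 1149.6, 1162 and 1133 to 737, 639 and 743 (-0.70 ± 0.08, adjusted p = 2.83e-05). On the cell wall list 2 of 6 measured genes fell and 0 rose, and among 17 expansins and xyloglucan transferases 2 fell and 1 rose. Among all probe sets 5.54% fell and 4.98% rose. In that family EXPA15 was at -0.41 (adjusted p = 0.0175) and EXPB1 at 0.51 (adjusted p = 0.0413); the first call was lost without Ws-2 H array 2 or 3 or ape2 H array 2 or 3 (adjusted p up to 0.0829), and the second without any 1 Ws-2 H array, any 1 Ws-2 L array, ape2 H array 1 or 3 or ape2 L array 1 (adjusted p up to 0.16). Of 19 TBL genes, grouped by symbol after the values were seen, 3 fell and 0 rose, with a median of -0.07, among them TBL16, from 76.9 ± 9.11 to 47.5 ± 2.79 (-0.59 ± 0.11, adjusted p = 0.00233), and TBL37 at -0.44 (adjusted p = 0.0203), a call lost without Ws-2 H array 3 or ape2 H array 3 (adjusted p up to 0.114).

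Regulators were found on both sides. CCL, a gene whose unstable transcript cycles over the day, rose from 269, 201 and 208 to 602, 709 and 601 (1.46 ± 0.11, adjusted p = 4.49e-07), and GI, the evening clock gene GIGANTEA, fell from 183, 179 and 184 to 132, 125 and 157 (-0.38 ± 0.08, adjusted p = 0.00776). They were the 2 calls among 5 measured clock genes, whose median was 0.02, and the hour of harvest is not given in the sources used here. RR16, a type-A response regulator of cytokinin signalling, rose from 32.2, 34.8 and 46.6 to 83.0, 69.6 and 75.6 (0.86 ± 0.12, adjusted p = 0.0002). TINY2, which encodes an AP2/ERF-type DNA-binding factor, fell from 162, 147 and 156 to 59.7, 59.9 and 72.4 (-1.16 ± 0.11, adjusted p = 4.23e-06). HYH, the bZIP relative of the light signalling factor HY5, fell from 306, 347 and 335 to 262, 207 and 228 (-0.49 ± 0.09, adjusted p = 0.00233). BZIP53, a partner of the bZIP factors that act below SnRK1, rose from 108, 83.2 and 98.7 to 146, 163 and 127 (0.54 ± 0.11, adjusted p = 0.00341), while bZIP19, a zinc sensor, was at -0.27 (adjusted p = 0.0409) and was no longer called without Ws-2 H array 1 or 3, any 1 Ws-2 L array or ape2 H array 1 or 3 (adjusted p up to 0.199). These were the 1 rise and the 1 fall among 13 bZIP genes found by keyword, which do not include HYH. Among all probe sets 10.5% were called in either direction. Among bHLH factors bHLH121, known from iron homeostasis, rose from 39.5 ± 0.85 to 62.9 ± 5.31 (0.56 ± 0.11, adjusted p = 0.00298), and bHLH34 fell from 174 ± 31.8 to 106 ± 11.7 (-0.66 ± 0.12, adjusted p = 0.00206). Grouped by symbol after the values were seen, 1 of 8 bHLH and MYC genes rose and 5 fell, with a median of -0.46. Besides bHLH34, MYC3 and MYC4 the falls were BIM1 at -0.39 ± 0.10 and LHW at -0.52 ± 0.16 (adjusted p = 0.0222 and 0.0484). The call of BIM1 was lost without Ws-2 H array 2 or 3 or ape2 H array 1 or 2 and when condition H alone was fitted, and that of LHW without each array except Ws-2 L 1, Ws-2 L 3 and ape2 L 2, and under 5 of the other alternatives (adjusted p up to 0.0847 and 0.148 with an array left out). Of 5 cold-response genes 1 rose, the dehydrin LTI30, which is dim (0.60 ± 0.18, adjusted p = 0.039), a call lost without Ws-2 H array 2 or 3, Ws-2 L array 2 or any 1 ape2 H array (adjusted p up to 0.16).

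**Figure D4:**
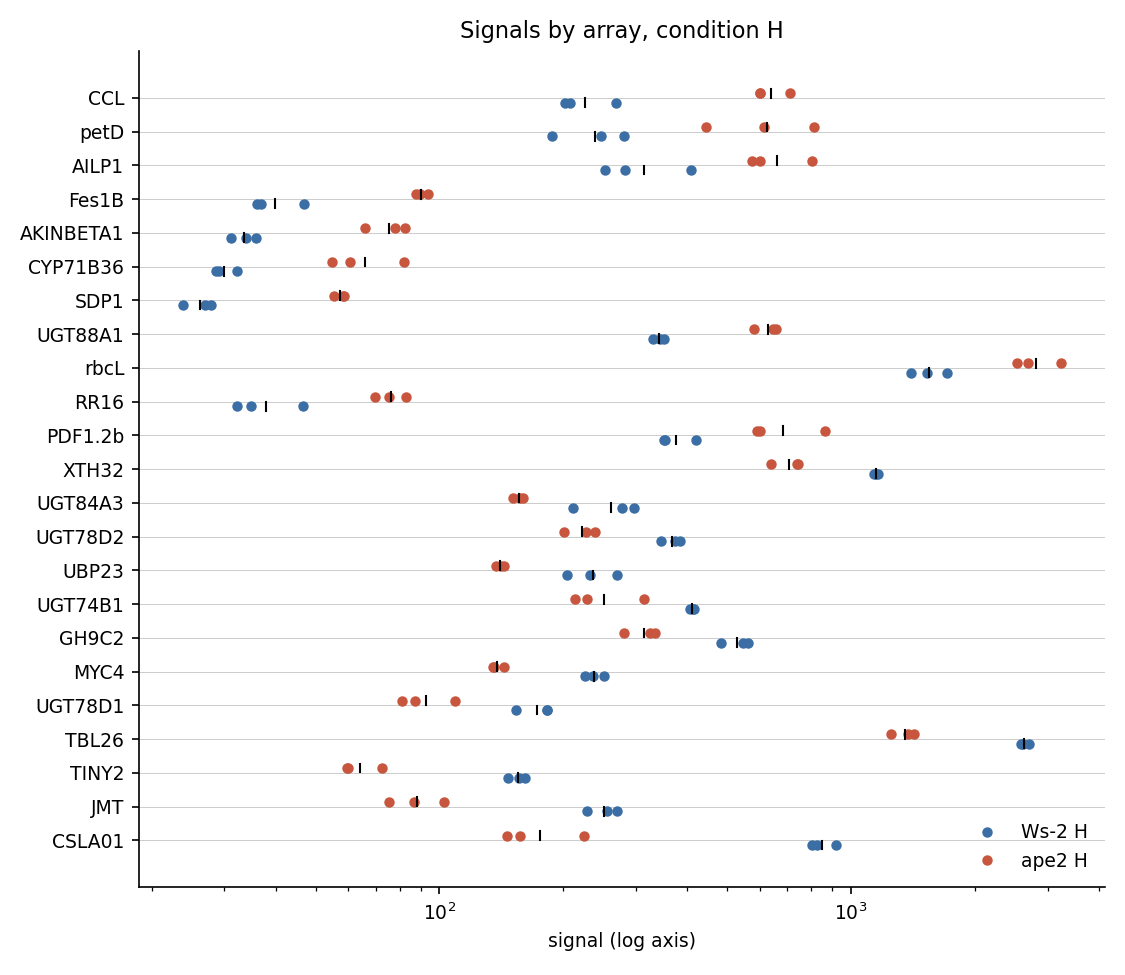
Signal (log axis) on each of the 3 arrays of Ws-2 (blue) and ape2 (red) in condition H for 11 of the 12 largest rises and the 12 largest falls among genes with a symbol, a mean signal of at least 20 in both genotypes, no overlap of their arrays and a call in every alternative other than leaving out an array, ordered by log2 change. These conditions leave out larger changes such as rps14, ATG8E and IQD22; black ticks are group means, and the lack of overlap seen for all genes drawn was required by the choice.

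Single genes of protein turnover and folding passed the test. UBP23, a ubiquitin-specific protease, fell from 204, 232 and 270.4 to 141, 137 and 144 (-0.70 ± 0.11, adjusted p = 0.000492). Grouped by symbol after the values were seen, 2 of 12 UBP genes fell and 0 rose, with a median of -0.15. Among all probe sets 10.5% were called. The other call was UBP25, at -0.45 (adjusted p = 0.0192), lost without Ws-2 H array 3 or ape2 H array 1 or 3 (adjusted p up to 0.104). The U-box ubiquitin ligases PUB19 and PUB24 were the 2 rises among 6 genes found for RING and U-box proteins, all with a PUB symbol. They were at 0.35 and 0.56 (adjusted p = 0.0213 and 0.0327). Of the 6 changes 3 were below 0, the largest that of PUB26 at -0.58 ± 0.18, which was not called (adjusted p = 0.058). The call of PUB19 was lost without Ws-2 H array 2 or 3 or ape2 H array 3 (adjusted p up to 0.0947), and that of PUB24 without any 1 Ws-2 H array or ape2 H array 2 (adjusted p up to 0.156). Fes1B, a nucleotide exchange factor of Hsp70 chaperones, rose from 46.9, 36.0 and 36.9 to 93.7, 89.5 and 87.9 (1.01 ± 0.12, adjusted p = 5.87e-05). On the list of heat shock proteins and chaperones, where 1 of 3 fell, AT3G09440 went from 1918, 1491 and 1539 to 1047, 1056 and 1119 (-0.61 ± 0.09, adjusted p = 0.000302).

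Growth-related signal peptides of the RALFL family had 3 falls and 0 rises among 6 measured, with a median of -0.36; the family was grouped after the values were seen. RALFL22 read 97.8, 97.1 and 99.9 in Ws-2 and 60.8, 60.8 and 57.6 in ape2, with little spread in either genotype (-0.63 ± 0.09, adjusted p = 0.000176). RALFL32 and RALFL34 were at -0.61 and -0.35 (adjusted p = 0.0219 and 0.0194); the call of RALFL32 was lost without Ws-2 H array 2 or 3 or ape2 H array 1 or 2 (adjusted p up to 0.104), and that of RALFL34 without Ws-2 H array 2 or 3 or ape2 H array 2 or 3 (adjusted p up to 0.0875).

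Several of the brightest and most changed genes are known here by locus code alone, and no role is given for them. After psbA, the brightest called genes were LHCB4.2, AT1G51400, AT2G41090 and AT1G78040. AT1G51400 read 2268, 1889 and 2140.3 in Ws-2 and 2789, 2618 and 3261 in ape2 (0.46 ± 0.11, adjusted p = 0.0118), a call lost without Ws-2 H array 2 or ape2 H array 3 (adjusted p up to 0.0649). AT2G41090 read 2198, 1552 and 1856 and 2695, 2774 and 2646 (0.55 ± 0.11, adjusted p = 0.00475), and its ape2 arrays were close together. AT1G78040 was at -0.20 (adjusted p = 0.0472), a call lost without each array except Ws-2 L 3 (up to 0.173). Among larger changes, chosen after their values were seen, AT3G62550 rose from 43.6 ± 6.5 to 233 ± 22.9 (2.19 ± 0.13, adjusted p = 3.03e-08). AT1G19960 rose from 188, 132 and 169 to 798, 877 and 749.7 (2.25 ± 0.17, adjusted p = 3.45e-06), and AT3G06070 from 21.0, 25.7 and 34.4 to 127, 133 and 132 (1.94 ± 0.13, adjusted p = 1.55e-07). On ape2 the 3 arrays of AT3G06070 lay within 127 to 133. AT5G24210 read 66.5, 23.4 and 46.1 in Ws-2 and 181, 234 and 152 in ape2 (1.91 ± 0.31, adjusted p = 0.00304). On the other side AT3G14200 fell from 151, 148 and 135 to 48.6, 33.6 and 42.5 (-1.59 ± 0.13, adjusted p = 8.44e-07), AT4G34950 from 668, 656 and 778 to 308, 261 and 218 (-1.39 ± 0.13, adjusted p = 4.23e-06) and AT2G27420 from 1863, 1502 and 1584 to 794, 730.1 and 829 (-1.06 ± 0.08, adjusted p = 7.65e-07).

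The same genotypes in condition L, which share no array with condition H, gave 1575 calls (9.8% of those tested). Of the 1690 calls in H, 885 were also called in L, which is 52.4% of the H calls and 56.2% of the L calls, and 882 of these had the same direction. Of the 805 H calls that were not called in L, 723 (89.8%) had the same sign there. The share with the same sign among all probe sets tested is not given here, so the 89.8% has no background to be read beside. Both contrasts came from the same fit, with a spread estimated over the arrays of both conditions. Calls in H and in L are therefore not independent, although the conditions share no array. The difference between the conditions was tested itself, as an interaction, and 3 probe sets (0.0187%) were called, while 1229 (7.64%) had an unadjusted p under 0.05. With Ws-2 L 2 left out the L count was 1024 and with Ws-2 L 3 left out 1046, and the interaction then had 0 calls in either case. For CSLA01 the changes were close although the levels differed: in L it went from 236 ± 55.8 to 41.3 ± 9.97, with -2.25 ± 0.19 in L beside -2.23 ± 0.19 in H and a difference of 0.02 ± 0.27 (adjusted p = 0.993). For 248886_at the change was -4.46 ± 0.09 in L, with a difference of 0.02 ± 0.12 (adjusted p = 0.986). The plot of both contrasts shows most H calls along the diagonal.

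Several genes had larger estimates in H than in L, but the interaction did not call those given here. UGT88A1 was at 0.86 ± 0.08 in H and 0.29 ± 0.08 in L, a difference of 0.56 ± 0.11 (adjusted p = 0.116). AT4G34950 was at -1.39 ± 0.13 and -0.51 ± 0.13 (difference -0.88 ± 0.18, adjusted p = 0.116), and AT3G26510 at 1.29 ± 0.11 and 0.42 ± 0.11 (difference 0.87 ± 0.16, adjusted p = 0.081). The autophagy gene ATG8E was at 1.27 ± 0.12 in L (difference 0.68 ± 0.16, adjusted p = 0.224) and rbcL at 0.34 ± 0.11 (difference 0.52 ± 0.15, adjusted p = 0.36). The estimate for the defensin PDF1.2 was larger in L, with 1.52 ± 0.14 in L (difference -0.91 ± 0.20, adjusted p = 0.159). Called in both conditions but in opposite directions were 3 probe sets. AT3G57450 fell in H (-0.63 ± 0.12, adjusted p = 0.00323) and rose in L (0.41 ± 0.12, adjusted p = 0.0492), with a difference of -1.04 ± 0.17 that was not called (adjusted p = 0.0639). AT2G30930 was at -0.53 ± 0.15 in H and 0.58 ± 0.15 in L (difference -1.12 ± 0.22, adjusted p = 0.116), and its call in H was lost without Ws-2 H array 1 or 2 or any 1 ape2 H array (adjusted p up to 0.148). The remaining one, 260126_at, is among the 3 interaction calls.

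**Figure D5:**
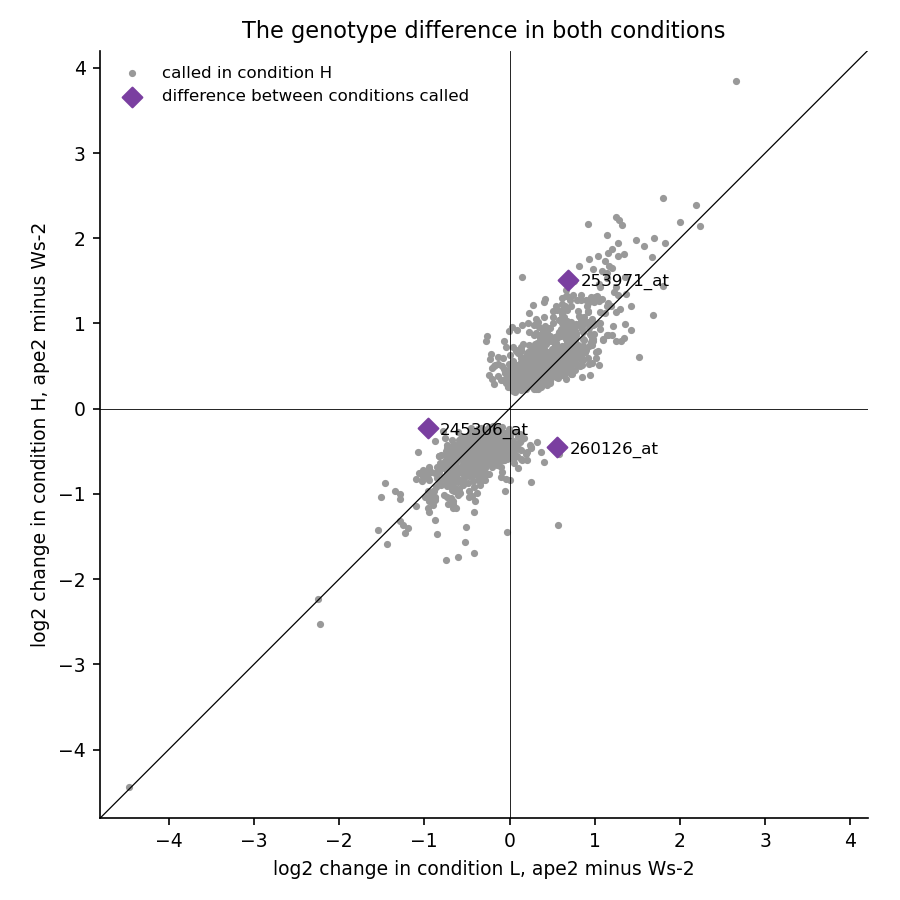
Log2 change ape2 minus Ws-2 in condition H against that in condition L for the probe sets called in H, with the line of equal change. Purple diamonds are the 3 probe sets whose difference between the conditions was called, 253971_at, 260126_at and 245306_at, at differences of 0.82, -1.01 and 0.74; 245306_at was itself not called in H.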

How the data were processed

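Biotin-labelled total RNA from 12 leaf samples was hybridised to single-colour oligonucleotide arrays with 22810 probe sets, 64 of them controls. The deposited values are linear signal intensities that the authors made with MAS5, per the submitters' processing notes; its version is not stated in the sources used here, and no detection calls were used. Arrays were brought to a common trimmed mean of 100 (2% left out at each end), controls were dropped, and log2(signal + 10) was analysed, so that folds of dim transcripts are understated. "Dim" means a group mean under 20. Probe sets at 20 or more on at least 3 arrays were kept, which removed 6670 of 22746. limma 3.58.1 in R 4.3.3 fitted 4 group means to all 12 arrays, with an intensity-dependent, robust prior. The script was checked on simulated data.

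The array annotation names 1 gene for 13513 probe sets, several for 503 and none for 8730. Of the 13513, 13484 matched RefSeq genes (TAIR10.1), and 1580 have a symbol. Of 879 genes on 43 lists, 141 have a tested probe set named for them, and others may be among the probe sets with no gene named. Gene families were found by keywords in symbols and synonyms, and no set test was run. The members and lists were chosen with earlier results of these data known. The rule for named genes takes the 12 largest rises and falls with a symbol, no overlap, a mean signal of at least 20 and a call in every alternative other than leaving out an array, up to 4 called members of each list with at least 2 calls, the 5 brightest called genes, the interaction calls and the largest unnamed changes. Other genes, among them list members that were not called or were their list's single call, were chosen after their values were seen. No coordinates are given, since the array annotation names no genome build. Nothing in the labels says that arrays of a group came from separate plants, so a p-value speaks of the spread among these samples alone, and that may be technical. As alternatives the offset was set to 1 or 32, the signal filter was dropped or raised to 50, values were quantile normalized or left unscaled, the prior was constant, arrays were weighted, condition H was fitted alone, the replicate number was a block, and each array was left out in turn. Of the genes chosen for naming, 1 of the 12 largest rises is not reported here.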

Additional observations from a re-analysis of the deposited data

Results flagged for a closer look

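The genotype difference itself differed between conditions H and L for 3 probe sets by limma's interaction term, none with a gene named in the annotation used here. The rise of 253971_at in ape2 was larger in H: its signals were 487, 450.1 and 446 in Ws-2 H and 1267, 1232 and 1497 in ape2 H, a log2 change of 1.51 ± 0.08, against 0.69 ± 0.08 in L, a difference of 0.82 ± 0.11 (adjusted p = 0.0155). The change of 260126_at was -0.45 ± 0.10 in H, where it read 96.9, 112 and 96.4 and 77.4, 71.5 and 66.9, and 0.56 ± 0.10 in L, a difference of -1.01 ± 0.14 (adjusted p = 0.0155). The change of 245306_at was smaller in H, at -0.23 ± 0.07 and not called (adjusted p = 0.0601), than in L, at -0.96 ± 0.07, a difference of 0.74 ± 0.10 (adjusted p = 0.0179). The interaction had 3 calls, 0 without Ws-2 L 2 or Ws-2 L 3, 1 without ape2 H 3, 6 without Ws-2 L 1 or ape2 H 2 and 7 without Ws-2 H 1.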

How the results depend on the processing

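The count of probe sets called in condition H, 1690, ran from 1372 with a constant prior to 2050 with array weights over 10 alternatives, and the higher and lower counts from 646 to 968 and from 726 to 1082. Leaving out 1 array gave 1095 to 1843 calls in H (533 to 874 higher, 562 to 969 lower), 1024 to 1604 in L and 0 to 7 in the interaction. The interaction count of 3 became 0 with a constant prior and 10 with array weights. The causes of these moves were not tested. With the replicate block 1592 probe sets were called in H, 752 higher and 840 lower, and 1475 in L. The correlations of same-numbered arrays of H, taken as deviations from the group means, were -0.0987, -0.26 and 0.0341, so the numbers were not taken as pairs. Of 112 probe sets named, 108 were called, 71 of them under all 22 alternatives that gave a value; leaving out an array ended the call of a named probe set in 156 of 1344 values recomputed for these 112 and the other alternatives in 57 of 1117, and no called change turned sign. Scaling removes any change shared by most transcripts. Dim transcripts have the largest errors and offset-dependent sizes.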

Other observations

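Some called genes outside the groups described above were noticed after their values were seen. CYTC-2, a cytochrome c of the mitochondrial respiratory chain, fell from 271, 308 and 288 in Ws-2 H to 190.4, 176 and 168 in ape2 H, a log2 change of -0.67 ± 0.09 (adjusted p = 0.000207 by limma). PRXR1, a peroxidase, rose from 1838, 1598 and 1642 to 2295, 2285 and 2598 (0.50 ± 0.07, adjusted p = 0.000343). AER, an alkenal reductase that detoxifies reactive carbonyls, rose from 155, 168 and 154 to 233, 219 and 250.5 (0.53 ± 0.12, adjusted p = 0.00857). DI19, a zinc-finger protein known from drought, rose from 463, 329.6 and 356 to 543, 523 and 547 (0.49 ± 0.10, adjusted p = 0.00364), with ape2 arrays closer together than Ws-2 arrays. These 4 calls held without each array. BIM1, a bHLH partner in brassinosteroid signalling, fell from 58.0 ± 1.5 to 42.0 ± 4.35 (-0.39 ± 0.10, adjusted p = 0.0222), a call lost without Ws-2 H array 2 or 3 or ape2 H array 1 or 2 (adjusted p up to 0.0847).

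Among serine carboxypeptidase-like genes, grouped by symbol after the values were seen, 2 of 20 rose and 1 fell, with a median of -0.07. Among all probe sets 4.98% rose and 5.54% fell. The gene scpl35 rose from 123, 154 and 158 to 217, 183 and 210.2 (0.46 ± 0.10, adjusted p = 0.00602). The call of scpl26 at 0.25 (adjusted p = 0.0459) was lost without Ws-2 H array 1 or 3, any 1 Ws-2 L array, ape2 H array 1 or 3 or ape2 L array 1 or 3 (adjusted p up to 0.161), and that of SCPL34 at -0.60 (adjusted p = 0.0415) without Ws-2 H array 2 or 3, any 1 Ws-2 L array, ape2 H array 2 or 3 or ape2 L array 1 or 3 (adjusted p up to 0.175). Among IQD calmodulin-binding proteins 2 of 7 fell: IQD22, which is dim in ape2 with 13.2, 27.3 and 26.1 and 5.4, 1.8 and 1.5 (-1.30 ± 0.23, adjusted p = 0.00127, and -2.64 at an offset of 1 and -0.63 at 32), and IQD24 at -0.35 (adjusted p = 0.039), a call lost without any 1 Ws-2 H array or ape2 H array 2 or 3 (adjusted p up to 0.138). The symbol NQR, of a quinone reductase, is carried by 2 probe sets. Whether they stand for the same locus is not given here. One rose by 0.29 ± 0.07 (adjusted p = 0.0131), a call lost without Ws-2 H array 2 or ape2 H array 2 (adjusted p up to 0.062), and the other was at 0.03 ± 0.10 (adjusted p = 0.911).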
